A study of Homo sapiens with 27 samples.

Results

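Genes of the mitotic spindle, the spindle checkpoint and condensin were followed in U937 cells, an established human line from a histiocytic lymphoma that is used as a monocyte and macrophage model. The 52 genes were taken by symbol from the array's probe table, and each was read from its probe with the highest mean log2 intensity. A named probe was present for 46 of the 52 genes, among 15207 named genes and 30968 probes in all. DLGAP5 was listed on the array under an older symbol, and CDC25C, CENPM, MAD2L1, CDC20, PTTG1 and TOP2A had no named probe and have no values here. Untreated cells were compared with cells given 4 µg/ml lipopolysaccharide (LPS, a cell wall molecule of Gram-negative bacteria sensed by TLR4), and with cells given 10 µM PBD150, an inhibitor of glutaminyl cyclase, for 2 h before the same dose of LPS. All groups were cultured for 48 h. A group held 3 biological replicates, each read on 3 technical arrays, so 27 arrays were used and n = 3 refers to biological replicates. The labels call the cells macrophages, name no differentiating agent and do not say whether the replicates were grown on separate days, so p-values measure the spread between these cultures.

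Cell division needs the duplicated chromosomes to be compacted, attached to spindle microtubules and pulled apart. Condensin, a ring-shaped complex, compacts the chromosomes, and the kinetochore, a protein plate built on the centromere, holds them to the microtubules. The spindle checkpoint holds back the anaphase-promoting complex until all kinetochores are attached. Most of these genes are transcribed in G2 and mitosis, so their RNA is abundant in dividing populations and scarce in cells that have left the cycle. U937 cells proliferate in culture and are known to stop dividing when they mature along the monocyte lineage.

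The question was what LPS, and PBD150 ahead of LPS, did to the RNA of this machinery. With LPS, 44 of the 46 measured genes fell and 0 rose (limma, Benjamini-Hochberg adjustment over all probes at 0.05), where 11.8% of all probes passed as lower and 10.6% as higher. That balance depended on the scaling, at 7.12% lower and 19.2% higher with the values as deposited and 12.3% and 7.36% after median centring. The median log2 difference from untreated cells was -2.19, against 0.05 over all 15207 named genes. A fall of at least 2-fold was measured for 44 genes and one of at least 4-fold for 26, leaving out NCAPG, for which the array gives only a bound. In all 46 genes every LPS culture lay below every untreated culture, a separation seen in 20% of all probes. INCENP and UBE2C were the genes that did not pass the test. In a bulk sample, fewer dividing cells and less of these RNAs per cell cannot be told apart.

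**Figure D1:**
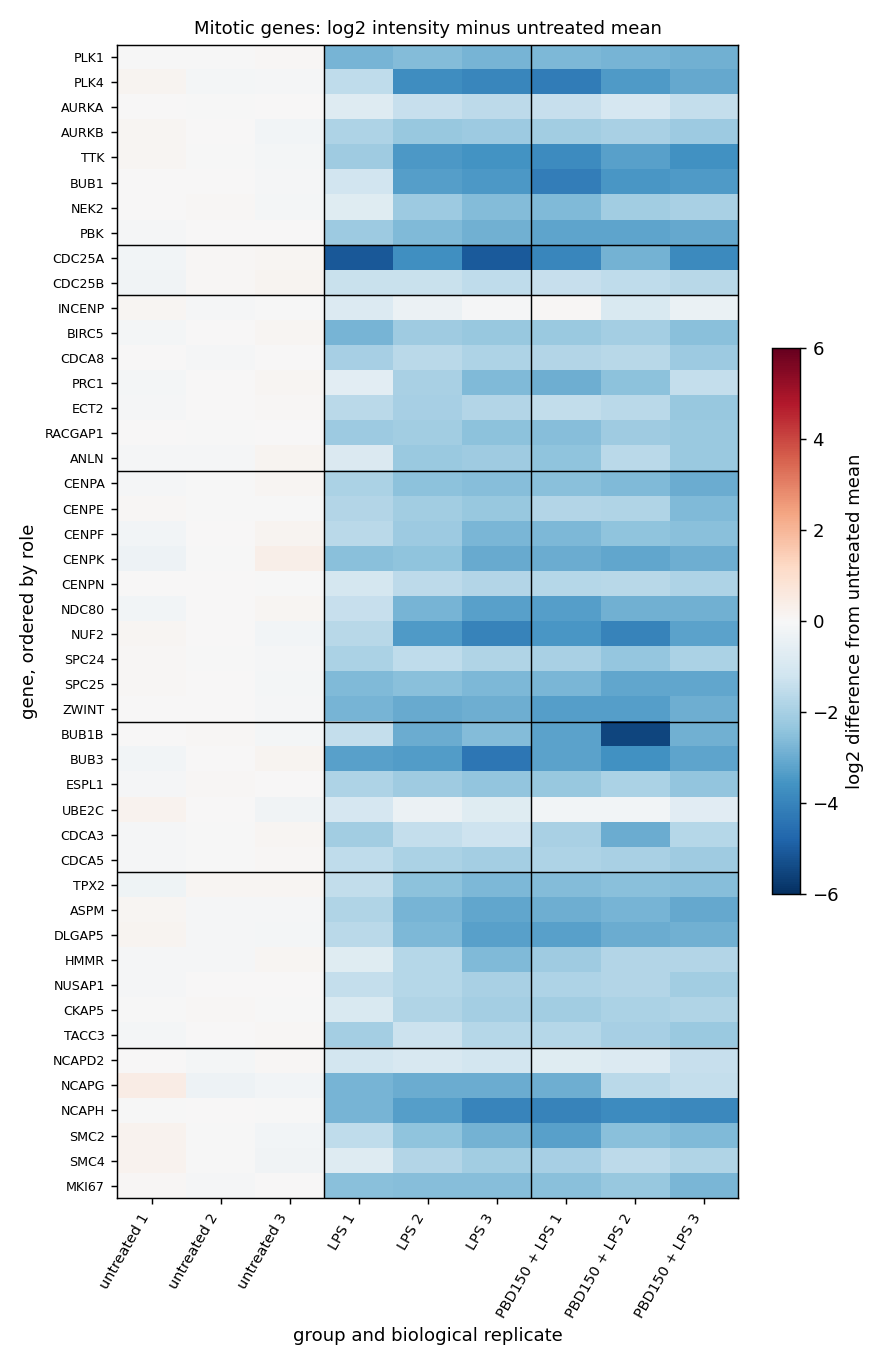
Heat map of the log2 intensity of each measured gene minus its mean in untreated cells (colour, log2 units), with genes in rows ordered by role and the 9 cultures in columns (3 per group). The untreated columns are near white, and the LPS and PBD150 plus LPS columns are blue in nearly every row, with INCENP and UBE2C palest.

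Promoter sequences are shown because many genes of this set are textbook targets of one promoter arrangement. MuvB complexes, which repress these genes in resting cells as DREAM and activate them in G2 together with B-Myb and FOXM1, bind the CHR element, whose common forms read TTTGAA or TTTAAA. The factor NF-Y binds nearby CCAAT boxes. RefSeq windows (GRCh38.p14) from 250 bases before to 50 bases after the transcription start were matched for 38 of the 46 genes by symbol. AURKA, TTK, PBK, BIRC5, RACGAP1, BUB3, UBE2C and TPX2 had no entry in that table. The printed windows are those of the 3 genes with the smallest p with LPS that held a CHR-type motif together with CCAAT, and of INCENP, which did not pass. They belong to PLK1 (chr16:23678639-23678938, plus strand), ZWINT (chr10:56361210-56361509, minus strand), SPC25 (chr2:168890381-168890680, minus strand) and INCENP (chr11:62123761-62124060, plus strand). Each is written 5′ to 3′ along its gene, and capitals mark the CHR-type motifs and CCAAT boxes. A motif on the opposite strand reads TTCAAA for the first CHR form and ATTGG for the box.
PLK1: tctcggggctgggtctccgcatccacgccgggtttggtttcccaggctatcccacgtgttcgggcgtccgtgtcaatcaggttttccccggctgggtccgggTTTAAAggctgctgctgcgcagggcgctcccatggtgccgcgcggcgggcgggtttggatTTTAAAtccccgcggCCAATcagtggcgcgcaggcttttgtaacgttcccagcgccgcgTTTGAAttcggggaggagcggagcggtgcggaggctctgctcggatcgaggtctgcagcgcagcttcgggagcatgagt
ZWINT: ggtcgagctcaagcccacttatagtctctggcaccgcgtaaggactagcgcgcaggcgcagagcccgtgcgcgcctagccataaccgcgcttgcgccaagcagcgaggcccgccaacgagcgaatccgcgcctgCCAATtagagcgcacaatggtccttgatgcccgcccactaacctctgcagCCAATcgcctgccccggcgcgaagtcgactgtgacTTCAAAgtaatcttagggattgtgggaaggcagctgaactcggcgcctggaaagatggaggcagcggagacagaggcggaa
SPC25: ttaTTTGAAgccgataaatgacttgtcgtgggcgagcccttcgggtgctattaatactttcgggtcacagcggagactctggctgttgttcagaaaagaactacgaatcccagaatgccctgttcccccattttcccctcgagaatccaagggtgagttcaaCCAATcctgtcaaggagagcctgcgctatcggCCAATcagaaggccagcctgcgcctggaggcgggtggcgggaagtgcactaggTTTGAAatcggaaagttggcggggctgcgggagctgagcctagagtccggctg
INCENP: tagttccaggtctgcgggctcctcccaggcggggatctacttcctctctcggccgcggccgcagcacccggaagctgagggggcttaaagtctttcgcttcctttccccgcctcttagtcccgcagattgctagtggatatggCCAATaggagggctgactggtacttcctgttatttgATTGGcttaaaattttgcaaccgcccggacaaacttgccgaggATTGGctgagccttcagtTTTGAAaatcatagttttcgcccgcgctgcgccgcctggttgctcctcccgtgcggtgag

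The PLK1 window held TTTGAA with its first base 29 bases before the start, CCAAT 73 bases before it, and TTTAAA 88 and 148 bases before it. In the ZWINT window the CHR-type motif lay 31 bases before the start and the CCAAT boxes 66 and 116 bases before it. SPC25 had TTTGAA 3 and 247 bases before its start, with CCAAT at 56 and 88 bases. The INCENP window had the same motifs, with TTTGAA 10 bases before the start and CCAAT, in either orientation, 28, 71 and 107 bases before it. INCENP thus held the same pair of motifs as the 3 genes that fell.

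Over the 48 windows of the 38 genes, TTTGAA was found in 60.4%, against 11.9% of the 17608 windows of genes named on the array. CCAAT was found in 64.6% against 34.5%, and TTTGAA or TTTAAA in the same window as CCAAT in 43.8% against 7.49%. TTTAAA alone was closer to the other genes, at 16.7% against 9.63%. The E2F-type motifs TTTGGCGC or TTTCGCGC were in 4.17% against 1.47%, and the TATA-box motif TATAAA in 4.17% against 8.41%. Both strands were searched, motifs of different kinds overlapped in 2 of the 48 windows, and the median GC content was 62.2% in these windows and 63.0% in those of all named genes. The 20 genes with the pair of motifs had a median log2 difference of -1.97 with LPS, and the 18 genes with a window but without the pair had one of -2.18. With PBD150 plus LPS the medians were -2.25 with the pair and -2.16 without it. Whether genes with and without the pair differ was not tested. A match gives letters in a window, not a bound site, and genes with several start sites have several windows.

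**Figure D2:**
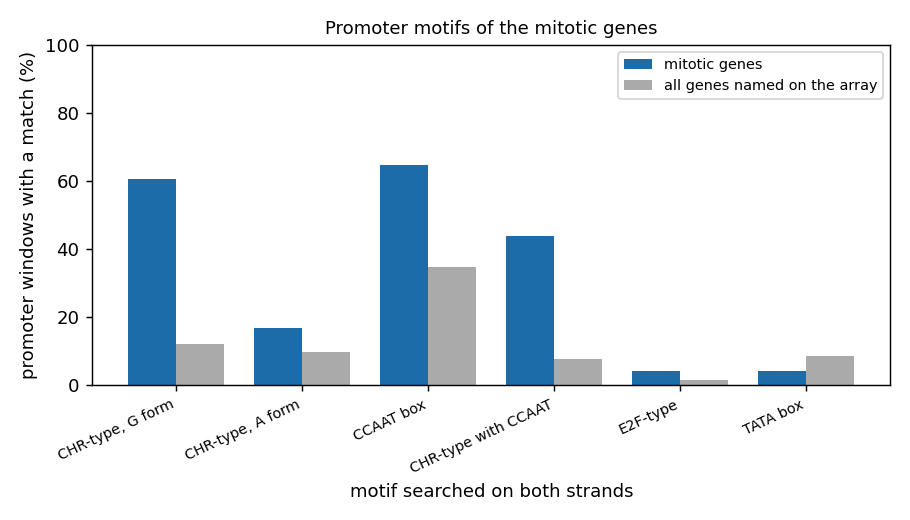
Share of promoter windows (%, 0 to 100) with at least 1 match to each motif on either strand, for the 48 windows of the mitotic genes (blue) and the 17608 windows of all genes named on the array (grey); G form is TTTGAA, A form TTTAAA, E2F-type TTTGGCGC or TTTCGCGC. The blue bar is above the grey one for every motif except the TATA box.

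All 8 mitotic kinases fell with LPS, with a median log2 difference of -2.60. PLK1, the polo-like kinase that drives mitotic entry and spindle assembly, read 10.06, 10.08 and 10.16 in untreated cultures, 7.29, 7.49 and 7.32 with LPS, and 7.38, 7.32 and 7.21 with PBD150 plus LPS. Both treated groups lay more than 2 log2 units under the untreated one and overlapped each other. The fall was -2.73 ± 0.16 (SE, n = 3, adjusted p = 2.33e-05) with LPS, or 6.64-fold, and 6.94-fold with PBD150 plus LPS (adjusted p = 1.85e-05). In the deposited intensity units the PLK1 probe had medians over 9 arrays of 998.8 in untreated cells, 174.7 after LPS and 155.1 after PBD150 plus LPS. PBK, a kinase that is active in mitotic cells, read 11.17, 11.24 and 11.27 untreated, 9.06, 8.56 and 8.34 with LPS, and 8.05, 8.05 and 8.18 with PBD150 plus LPS. Its 3 groups were separate from each other, and its log2 difference from untreated cells was -2.57 with LPS and -3.14 with PBD150 plus LPS (adjusted p = 0.000113 and 3.76e-05).

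AURKB, the kinase of the chromosomal passenger complex that corrects wrong attachments, read 10.46, 10.37 and 10.20 untreated, 8.50, 8.06 and 8.15 with LPS, and 8.23, 8.40 and 8.15 with PBD150 plus LPS. The treated groups overlapped, both below the untreated range, with a difference of -2.10 ± 0.19 for LPS (adjusted p = 0.000165). A dimmer AURKB probe, above noise on 21 of 27 arrays, gave -3.97 (adjusted p = 0.00118) and the mean of both probes -3.03, so the size of this fall depended on the probe. TTK, the kinase that starts checkpoint signalling at unattached kinetochores, read 10.54, 10.41 and 10.29 untreated, 8.29, 6.96 and 6.83 with LPS, and 6.65, 7.17 and 6.76 with PBD150 plus LPS. LPS replicate 1 stood above all other treated cultures for TTK, and the fall was 8.32-fold with LPS and 11.8-fold with PBD150 plus LPS (adjusted p = 0.000683 and 0.000261). The other kinases fell with LPS as well, with log2 differences of -3.06 for PLK4, which duplicates centrioles, -2.63 for BUB1, a checkpoint kinase of the kinetochore, -1.85 for NEK2, which separates centrosomes, and -1.24 for AURKA, the kinase of spindle poles (adjusted p from 0.00699 to 0.0185). The NEK2 call was lost without untreated replicate 1 or 2 or LPS replicate 2 or 3 (adjusted p from 0.0561 to 0.0646).

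CDC25 phosphatases remove the inhibitory phosphates from cyclin-dependent kinases, and both measured members fell. CDC25A read 7.87, 8.10 and 8.17 untreated, 2.98, 4.35 and 3.02 with LPS, and 4.14, 5.23 and 4.24 with PBD150 plus LPS. Its fall with LPS was -4.59 ± 0.42 or 24.1-fold (adjusted p = 0.000177), and it fell 11.4-fold with PBD150 plus LPS (adjusted p = 0.000529). Its probe was above the noise limit of the array (3 times the root mean square of the values below 0) on 7 of 9 arrays in each treated group, and with a pseudocount of 16 in place of the floor the LPS difference was -3.14. By size of fall it ranked 1 in the set with the floor and 2 with the pseudocount. CDC25B read 12.20, 12.50 and 12.59 untreated, 11.09, 11.09 and 10.88 with LPS, and 11.03, 10.91 and 10.78 with PBD150 plus LPS. The groups given LPS overlapped, and the fall was 2.66-fold with LPS (adjusted p = 0.000926).

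**Figure D3:**
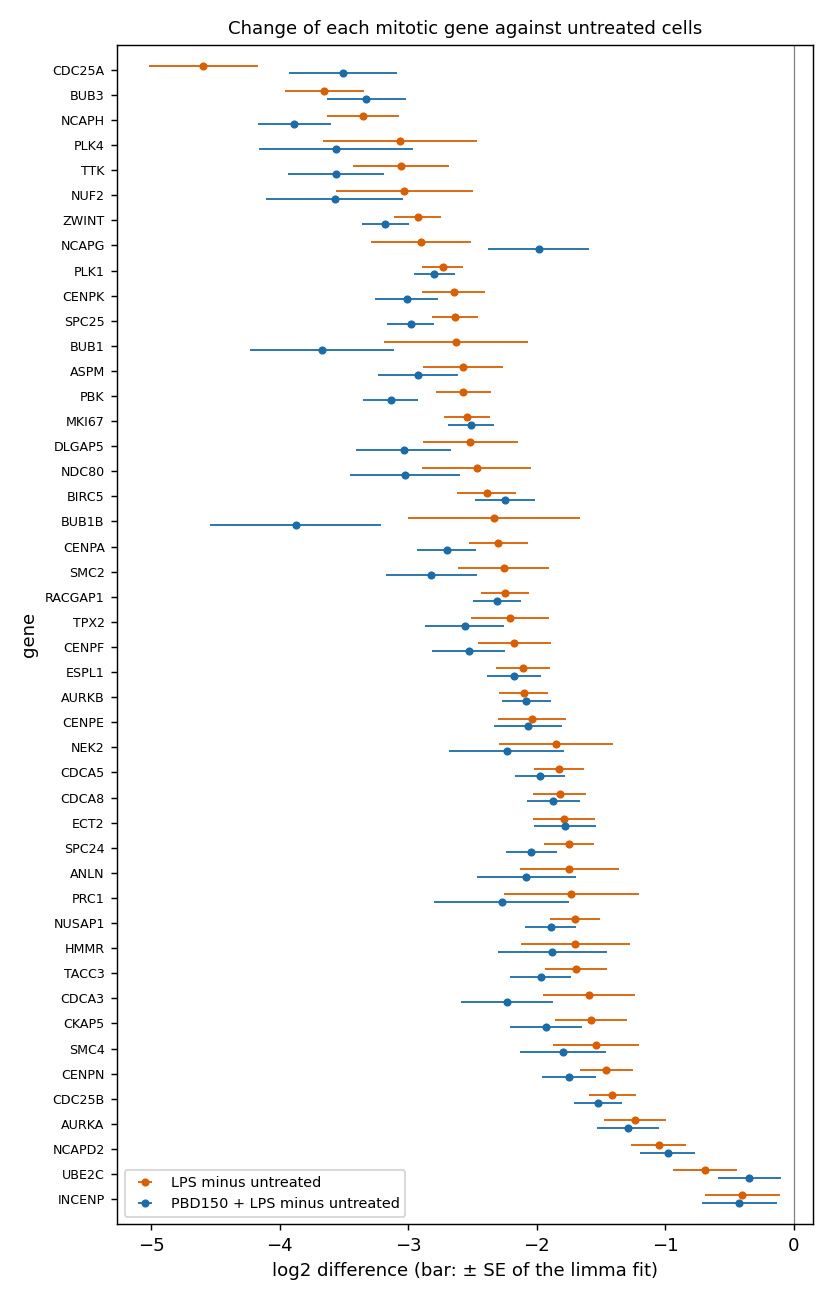
Log2 difference from untreated cells (x axis) for each of the 46 measured genes (y axis, sorted by the LPS value), with LPS in orange and PBD150 plus LPS in blue; points are limma estimates from 3 replicates a group and bars are ± 1 SE. All points are below 0, from -4.59 for CDC25A to -0.40 for INCENP with LPS.

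The chromosomal passenger complex places AURKB on centromeres and later on the central spindle, where other proteins of the group build the cleavage furrow. Of the 7 genes grouped here under the complex and cytokinesis 6 fell with LPS, with a median log2 difference of -1.79 over the 7. AURKB was counted with the kinases. RACGAP1, a GTPase-activating subunit of the centralspindlin complex, read 10.23, 10.19 and 10.23 untreated, 8.03, 8.13 and 7.77 with LPS, and 7.67, 8.07 and 7.99 with PBD150 plus LPS. The untreated values were nearly identical and the treated groups overlapped about 2 units below, a fall of 4.73-fold with LPS and 4.95-fold with PBD150 plus LPS (adjusted p = 0.000115 and 8.22e-05). BIRC5, which encodes survivin and targets the complex to centromeres, read 10.05, 10.22 and 10.28 untreated, 7.39, 8.06 and 7.92 with LPS, and 7.97, 8.16 and 7.67 with PBD150 plus LPS. Its fall with LPS was -2.39 ± 0.23 (adjusted p = 0.000225), and a dimmer BIRC5 probe gave -0.81 (adjusted p = 0.0143), so the size of its fall depended on the probe.

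INCENP, the scaffold that binds and activates AURKB, read 7.56, 7.39 and 7.42 untreated, 6.66, 7.12 and 7.39 with LPS, and 7.53, 6.54 and 7.04 with PBD150 plus LPS. LPS replicate 3 lay next to the untreated values and PBD150 plus LPS replicate 1 within them. Its difference was -0.40 ± 0.29 with LPS (adjusted p = 0.377) and -0.42 with PBD150 plus LPS (adjusted p = 0.323). Thus the scaffold did not pass the test while the kinase and the other 2 measured subunits of the complex, BIRC5 and CDCA8 (borealin), fell. The log2 differences with LPS were -1.82 for CDCA8, -1.79 for the GTP-exchange factor ECT2, -1.75 for the furrow protein ANLN and -1.73 for the microtubule bundler PRC1 (adjusted p from 0.000439 to 0.0462). PRC1 was the least steady, at 10.06, 8.76 and 8.06 in the LPS cultures, and its call was lost in 9 of 18 alternative analyses, among them those without LPS replicate 2 (adjusted p = 0.121) or 3 (0.138) and without untreated replicate 1 (0.0965), 2 (0.112) or 3 (0.117), and without PBD150 plus LPS replicate 2 (0.0653), which enters through the shared estimate of spread.

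All 10 measured centromere and kinetochore genes fell with LPS, with a median log2 difference of -2.38. ZWINT, an outer kinetochore protein that recruits the RZZ complex, read 12.44, 12.46 and 12.37 untreated, 9.63, 9.39 and 9.47 with LPS, and 9.13, 9.10 and 9.51 with PBD150 plus LPS. The treated groups overlapped by 1 culture, and the fall was 7.60-fold with LPS and 9.04-fold with PBD150 plus LPS (adjusted p = 3.14e-05 and 1.85e-05). SPC25, a subunit of the NDC80 complex that grips microtubules, read 12.71, 12.67 and 12.54 untreated, 9.97, 10.11 and 9.92 with LPS, and 9.91, 9.52 and 9.54 with PBD150 plus LPS. No culture of one group reached into another, and the fall was 6.22-fold with LPS and 7.89-fold with PBD150 plus LPS (adjusted p = 4.57e-05 and 2.25e-05).

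The other subunits of the NDC80 complex fell too, at -3.03 for NUF2, -2.47 for NDC80 and -1.75 for SPC24 on the log2 scale with LPS (adjusted p = 0.00417, 0.00378 and 0.000423). CENPK, of the constitutive centromere network, read 9.44, 9.74 and 10.10 untreated, 7.26, 7.36 and 6.72 with LPS, and 6.77, 6.66 and 6.83 with PBD150 plus LPS. It fell 6.26-fold with LPS and 8.05-fold with PBD150 plus LPS, with the treated groups overlapping (adjusted p = 0.000179 and 8.3e-05). CENPA, the histone H3 variant that marks the centromere, read 13.43, 13.48 and 13.63 untreated, 11.63, 11.06 and 10.96 with LPS, and 11.00, 10.88 and 10.56 with PBD150 plus LPS. The treated groups met at 10.96 and 11.00 and fell 4.92-fold and 6.50-fold (adjusted p = 0.000257 and 0.000107), and a dimmer CENPA probe gave larger log2 falls of -3.81 and -4.33. The log2 differences with LPS of CENPF, a large kinetochore protein of G2 cells, the kinesin CENPE and CENPN, which reads CENPA nucleosomes, were -2.17, -2.04 and -1.46 (adjusted p from 0.000945 to 0.00144).

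Of 6 measured genes of the checkpoint, the anaphase-promoting complex and chromosome separation, 5 fell with LPS, with a median log2 difference of -1.97 over the 6. BUB3, the adaptor that brings BUB1 and BUBR1 to kinetochores, read 7.12, 7.30 and 7.45 untreated, 4.02, 3.95 and 2.94 with LPS, and 4.09, 3.67 and 4.13 with PBD150 plus LPS. The treated groups overlapped about 3 units below, with fitted falls of 12.6-fold with LPS and 10.0-fold with PBD150 plus LPS (adjusted p = 0.00012 and 0.00015). Its probe was above noise on 4 of 9 arrays in each treated group, and with a pseudocount of 16 the log2 differences were -2.48 and -2.42, so these folds depended on how low values were treated. ESPL1, the separase that cleaves cohesin at anaphase, read 12.51, 12.65 and 12.64 untreated, 10.77, 10.48 and 10.22 with LPS, and 10.33, 10.70 and 10.25 with PBD150 plus LPS. Its treated groups lay within the same range, a fall of 4.31-fold and 4.51-fold (adjusted p = 0.000257 and 0.000188).

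UBE2C, the ubiquitin-conjugating enzyme of the anaphase-promoting complex, read 7.64, 7.44 and 7.19 untreated, 6.42, 7.09 and 6.70 with LPS, and 7.24, 7.24 and 6.76 with PBD150 plus LPS. The LPS cultures were all below the untreated ones, those with PBD150 plus LPS reached into the untreated range, and neither difference passed (-0.69 ± 0.25, adjusted p = 0.0804, and -0.35, adjusted p = 0.34). Its LPS call was gained in 3 of 18 alternatives, with the pseudocount of 16 (adjusted p = 0.0383), with dim probes left out (0.038) and with all 27 arrays in the fit (0.00402). CDCA5 (sororin, which protects cohesin) and CDCA3, a trigger of mitotic entry, fell with LPS, at -1.83 and -1.59 on the log2 scale (adjusted p = 0.00035 and 0.013). A second CDCA5 probe, above noise on 1 of 27 arrays, gave -0.09 (adjusted p = 0.914), and the mean of both probes -0.96.

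All 7 spindle assembly genes fell with LPS, with a median log2 difference of -1.70. NUSAP1, which binds and bundles spindle microtubules, read 14.63, 14.75 and 14.74 untreated, 13.25, 13.00 and 12.75 with LPS, and 12.86, 12.96 and 12.62 with PBD150 plus LPS. The groups given LPS overlapped and fell 3.25-fold and 3.71-fold (adjusted p = 0.000485 and 0.00024). ASPM, a spindle pole protein, read 10.26, 10.08 and 10.10 untreated, 8.33, 7.34 and 7.04 with LPS, and 7.24, 7.34 and 7.09 with PBD150 plus LPS. LPS replicate 1 was again the highest treated culture, and the fall was 5.96-fold with LPS and 7.59-fold with PBD150 plus LPS (adjusted p = 0.000665 and 0.00029).

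TPX2, the activator of AURKA on the spindle, read 13.60, 13.96 and 13.97 untreated, 12.36, 11.38 and 11.16 with LPS, and 11.25, 11.33 and 11.27 with PBD150 plus LPS. The same culture was high, and the fall was 4.62-fold with LPS and 5.90-fold with PBD150 plus LPS (adjusted p = 0.00129 and 0.000517). The microtubule-associated proteins DLGAP5, HMMR, TACC3 and CKAP5 had log2 differences of -2.52, -1.70, -1.69 and -1.58 with LPS (adjusted p from 0.0014 to 0.0218). The HMMR call was lost without any 1 of the untreated replicates or LPS replicate 2 (adjusted p from 0.0581 to 0.0673).

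All 6 measured genes of condensin and chromosome structure fell with LPS, with a median log2 difference of -2.40. MKI67, which encodes the Ki-67 protein that coats mitotic chromosomes and is used as a proliferation marker, read 11.04, 10.89 and 11.00 untreated, 8.46, 8.43 and 8.41 with LPS, and 8.47, 8.70 and 8.24 with PBD150 plus LPS. The LPS cultures agreed within about 0.05, inside the range of those with PBD150, and the fall was 5.83-fold and 5.70-fold (adjusted p = 5e-05 and 4.47e-05). NCAPH, the kleisin that closes the condensin I ring, read 10.70, 10.74 and 10.66 untreated, 7.92, 7.38 and 6.75 with LPS, and 6.70, 6.94 and 6.81 with PBD150 plus LPS. It fell 10.2-fold with LPS and 14.8-fold with PBD150 plus LPS (adjusted p = 0.000118 and 4.85e-05). With the pseudocount of 16 it had the largest LPS fall of the set, -3.22.

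NCAPG, another condensin I subunit, had the dimmest probe, at 5.52, 4.76 and 4.89 untreated, 2.29, 2.09 and 2.10 with LPS, and 2.15, 3.44 and 3.63 with PBD150 plus LPS. It was not well above background on any of 9 LPS arrays and above it on 1 of 9 with PBD150 plus LPS, so only a bound is given for LPS, at least 2.08-fold lower than untreated (fitted adjusted p = 0.00109). The bound sets the untreated mean against the LPS mean with values under an array's noise limit raised to that limit. NCAPD2, the third condensin I subunit, fell least of the genes that passed, by 1.05 on the log2 scale with LPS (adjusted p = 0.00824). The ATPase subunits SMC2 and SMC4, which are common to both condensins, fell to log2 differences of -2.26 and -1.54 (adjusted p = 0.00241 and 0.0116), and a second SMC4 probe gave -1.53.

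The 9 cultures differed in how uniform these genes were. The median SD over the 46 genes was 0.10 log2 units between untreated cultures, 0.37 between LPS cultures and 0.24 between PBD150 plus LPS cultures. Single technical arrays of one culture had median SDs of 0.11, 0.21 and 0.23. Each culture value is the mean of 3 such arrays, so the SDs between cultures and between arrays are not directly comparable. LPS replicate 1 held the highest LPS value for 33 of the 46 genes (71.7%). The same culture was highest for 39.8% of all named genes and for 56.2% of the 2343 named genes that fell with LPS. LPS replicate 3 was lowest for 31 of the 46 (67.4%), against 32.8% of all named genes and 44.3% of those that fell with LPS.

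Set against the untreated mean, the median gene stood at -1.65, -2.21 and -2.59 in LPS replicates 1, 2 and 3 and at -2.53, -2.30 and -2.43 in the PBD150 plus LPS replicates. The LPS cultures thus spanned a wider range than the pretreated ones, on both sides of them. For 15 genes LPS replicate 1 was more than 1 log2 unit above the mean of the other LPS cultures, and for 18 it was within 0.5. PLK4 had the widest gap, 2.33, at 6.70, 4.47 and 4.27 with LPS against 8.37, 8.11 and 8.14 untreated and 4.03, 4.79 and 5.11 with PBD150 plus LPS. BUB1 had a gap of 2.25, at 6.77, 4.61 and 4.44 with LPS against 7.94, 7.91 and 7.84 untreated and 3.75, 4.42 and 4.52 with PBD150 plus LPS. NUF2 had a gap of 2.04, NEK2 one of 1.66 and NDC80 one of 1.61, so the gap was seen in kinases and kinetochore genes alike. The PLK4, BUB1 and NUF2 probes were each above noise on 8 of 9 LPS arrays, and on 8, 5 and 7 of 9 with PBD150 plus LPS. Their gaps thus rest partly on values near the noise limit. With a pseudocount of 16 their LPS differences were -2.51, -2.12 and -2.45.

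The gap was not shared by the whole set. LPS replicate 1 was below the mean of the other LPS cultures for 11 genes, by up to 0.75 for CDCA3, 0.70 for CDC25A and 0.60 for BIRC5 and INCENP. MKI67, PLK1 and SPC25 differed between LPS cultures by about 0.20 or less. Without LPS replicate 1 the log2 fall with LPS was -3.84 for PLK4, -3.38 for BUB1 and -3.71 for NUF2, and still 44 of 46 genes passed. The size of these falls rests on LPS values near the noise limit.

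**Figure D4:**
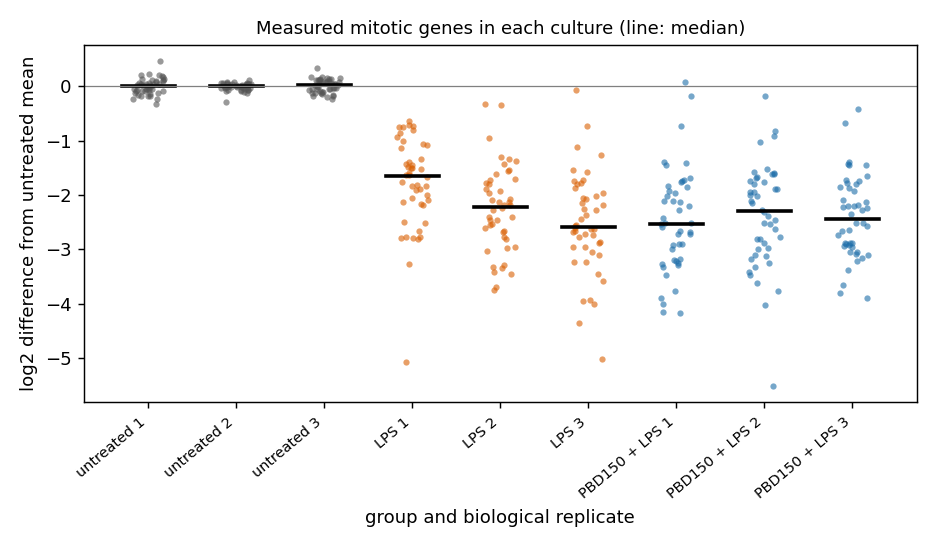
Log2 difference from the untreated mean (y axis) of the 46 measured genes in each of the 9 cultures (x axis), 1 point a gene, with the median as a line. The untreated medians are at 0, the LPS medians step from -1.65 to -2.59 and the PBD150 plus LPS medians lie between -2.30 and -2.53.

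With PBD150 before LPS, 44 of 46 genes fell against untreated cells and 0 rose, where 13.5% of all probes passed as lower and 12.6% as higher (9.91% and 16.3% as deposited, 13.7% and 8.51% after median centring). The median log2 difference was -2.26, against 0.06 over all named genes, and 31 genes fell at least 4-fold. For 44 genes no replicate overlapped the untreated range, a separation seen in 21.3% of all probes. INCENP and UBE2C again did not pass. Both comparisons use the same untreated arrays, so they are not independent of each other.

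The comparison that bears on glutaminyl cyclase is PBD150 plus LPS against LPS alone, and in it no gene of the set passed. The count was 0 of 46, as for all probes (0%), with a smallest adjusted p of 0.906 among the 46 genes. The median log2 difference was -0.28, against -0.01 over all named genes. Of the 46 values 37 (80.4%) were below 0, against 50.8% of all named genes. Values were below 0 for all 10 kinetochore genes (median -0.35), all 7 spindle assembly genes (median -0.35) and 7 of 8 kinases (median -0.44), and the medians of the passenger complex, checkpoint and condensin groups were -0.05, -0.11 and -0.11. The CDC25 phosphatases went both ways, with CDC25A at 1.09 and CDC25B at -0.11. The median over the set rested on LPS replicate 1, without which it was -0.03 and 26 of 46 values were below 0. Without LPS replicate 3 it was -0.41, with 38 below 0.

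At an unadjusted p under 0.05, 2 genes were lower and 2 higher, where 3.06% and 2.04% of all probes were. PBK was at -0.56 (95% interval -1.05 to -0.08, unadjusted p = 0.0282), and it and SPC25 were the genes whose pretreated cultures all lay below the LPS cultures, a separation seen in 4.29% of all probes, while 0 genes lay wholly above them (3.69% of all probes). BUB1B, the BUBR1 checkpoint protein, read 8.99, 9.05 and 8.87 untreated, 7.54, 6.01 and 6.37 with LPS, and 5.77, 3.46 and 6.07 with PBD150 plus LPS. PBD150 plus LPS replicate 2 stood far below the rest, the difference was -1.54 (interval -3.07 to -0.02, unadjusted p = 0.0477), and without that replicate it was -0.72. Against untreated cells BUB1B was at -2.33 with LPS alone and -3.87 with PBD150 plus LPS (adjusted p = 0.0372 and 0.00328). The second value was -3.05 without PBD150 plus LPS replicate 2 and -3.23 with the pseudocount of 16, and the first call was lost without any 1 of the untreated replicates (adjusted p from 0.0843 to 0.0976) or without LPS replicate 2 (0.115) or 3 (0.107).

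The 2 higher genes were CDC25A and NCAPG, both with dim probes after LPS. CDC25A was 1.09 higher with PBD150 (interval 0.12 to 2.05, unadjusted p = 0.0316), and LPS replicate 2, at 4.35, reached into the pretreated range of 4.14 to 5.23. NCAPG was 0.91 higher (interval 0.02 to 1.81, unadjusted p = 0.0455) on values near background. With a pseudocount of 16 these differences were 0.34 and 0.23, so their size depended on how low values were treated.

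For 24 of the 46 genes the 95% interval of the difference excluded a 2-fold change in either direction, as it did for 8521 of 15207 named genes. PLK1, at -0.06 (interval -0.43 to 0.30), AURKB, at 0.02 (-0.41 to 0.46), MKI67, at 0.03 (-0.37 to 0.44), and RACGAP1, at -0.06 (-0.49 to 0.36), were among the most tightly bounded. The dimmer AURKB probe was at 0.91 in this comparison (adjusted p = 0.906), so the bound for AURKB holds for its brighter probe. For the other 22 genes a 2-fold difference was within the interval, and the widest intervals were those of BUB1B, PLK4 (-1.87 to 0.87) and BUB1 (-2.33 to 0.24). For these 22 genes the data neither show a 2-fold effect of PBD150 nor bound it.

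**Figure D5:**
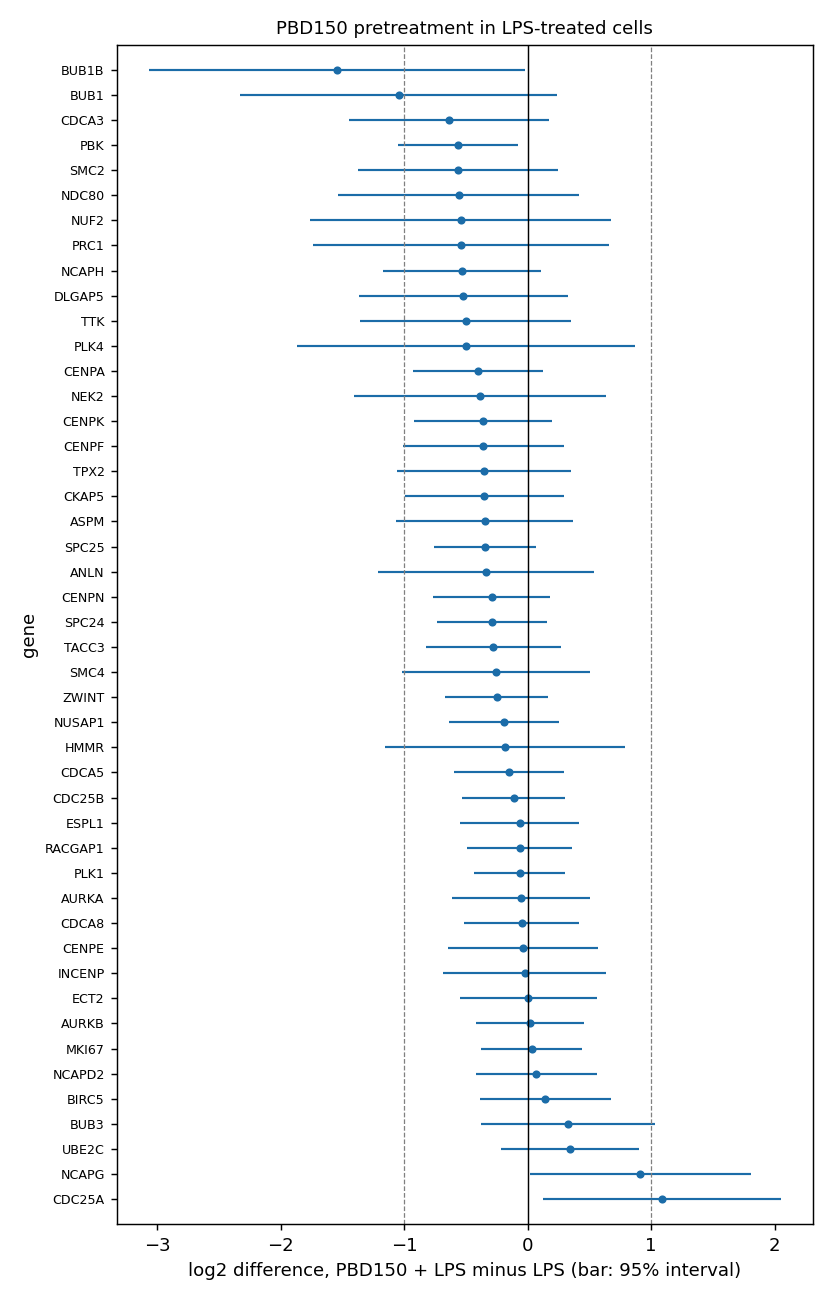
Log2 difference between PBD150 plus LPS and LPS alone (x axis) for each of the 46 measured genes (y axis, sorted), with points as limma estimates from 3 replicates a group and bars as 95% intervals; dashed lines mark 2-fold lower and higher. Most points are left of 0, and the bars of BUB1B, PBK, CDC25A and NCAPG alone do not cross it.

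Other genes of mitosis were taken from lists outside the set. Of 96 measured, 58 fell and 2 rose with LPS, 67 fell and 3 rose with PBD150 plus LPS, and 0 passed between the treated groups. Over all named genes 15.4% fell with LPS and 17.9% with PBD150 plus LPS, and 2061 and 2326 of 15207 rose. Of 11 genes of mitotic entry 10 fell with LPS, among them CCNA2 (cyclin A2) at -3.32, CKS1B, a subunit of cyclin-dependent kinases, at -3.18 and CCNB1 (cyclin B1) at -1.73 on the log2 scale. MASTL, the Greatwall kinase, did not pass with LPS by its brighter probe (-0.49, adjusted p = 0.125), a call gained in 3 of 18 alternatives (adjusted p from 0.0157 to 0.0251). The mean of its 2 probes was at -1.41 (adjusted p = 0.0157), so the size of its difference depended on the probe. Of 24 other centromere and kinetochore genes 19 fell, among them SKA3, of the SKA microtubule coupler, at -3.57, OIP5, which loads CENPA, at -2.45 and CENPQ at -2.43. NSL1, a MIS12 complex subunit, was at 1.12 with LPS (adjusted p = 0.0603, passing in 7 of 18 alternatives at 0.000711 to 0.0279) and rose with PBD150 plus LPS, by 1.35 (adjusted p = 0.0268, lost in 7 of 18 alternatives with adjusted p up to 0.095). The mean of the 2 NSL1 probes was at 0.46 with PBD150 plus LPS (adjusted p = 0.0942).

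The anaphase-promoting complex, whose subunits are needed outside mitosis as well, was mixed. Of 14 genes 4 fell and 1 rose with LPS, and 10 fell and 1 rose with PBD150 plus LPS, where 15.4% and 17.9% of all named genes fell. Whether the counts of the 2 comparisons differ was not tested. ANAPC13, 1 of the 4, was at -0.65 with LPS (adjusted p = 0.045), and its call was lost in 8 of 18 alternatives (adjusted p up to 0.344). ANAPC15 fell to -2.65 and ANAPC7 to -2.21 against untreated cells, both with probes above noise on 7 of 9 LPS arrays, and ANAPC16 rose by 0.83 with LPS (adjusted p = 0.0415, lost in 11 of 18 alternatives with adjusted p up to 0.487). The mean of the 2 ANAPC16 probes was at 0.18 with LPS (adjusted p = 0.487), so the size of its rise depended on the probe. Of 15 genes of cohesin and condensin II 6 fell and 1 rose. Condensin II subunits were at -1.81 (NCAPG2, adjusted p = 0.000278), -0.80 (NCAPH2, adjusted p = 0.0154) and -0.33 (NCAPD3, adjusted p = 0.28), against -3.35 for NCAPH and -1.05 for NCAPD2 of condensin I. The NCAPH2 call was lost as deposited (adjusted p = 0.178) and without LPS replicate 3 (0.0539) or untreated replicate 1 (0.0543) or 3 (0.0657). The acetyltransferase ESCO2, which establishes cohesion in S phase, fell by 3.05, and the cohesin loader subunit MAU2 rose by 0.64 (adjusted p = 0.0261, lost in 7 of 18 alternatives with adjusted p up to 0.341). The mean of the 2 MAU2 probes was at 0.41 with LPS (adjusted p = 0.341).

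Of 25 other spindle, centrosome and cytokinesis genes 14 fell with LPS, among them FAM83D, which recruits casein kinase to the spindle, at -3.29, CEP55, an abscission protein, at -1.98 and STMN1 (stathmin), a microtubule destabiliser, at -1.69. Among the regulators that act through the CHR motif, 5 of 7 fell with LPS. MYBL2 (B-Myb) was at -2.30 and FOXM1 at -2.54 (adjusted p = 0.000429 and 0.0101), and LPS replicate 1 was again the highest treated culture for FOXM1. LIN52 was at -1.04 and RBBP4 at -2.01, while LIN37 (0.14) and LIN54 (0.37) did not pass; LIN54 passed as higher in 2 of 18 alternatives (adjusted p = 0.0277 and 0.0449). MASTL, NSL1, ANAPC13, NCAPD3, MAU2, LIN37 and LIN54 were named after their values had been seen.

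Array medians lay between 41.5 and 100.3 intensity units, 69.0% to 77.8% of an array's probes exceeded its noise limit, and 39 of the 46 mitotic genes were above it on all 27 arrays. Of 11 measured monocyte and macrophage markers 9 rose with LPS, all but MSR1 and LYZ, and their summed intensity ranged from 9232 to 10294 in untreated cultures, from 186931 to 199590 after LPS and from 204684 to 217059 after the pretreatment. The sums of the treated groups are lower limits, since CD14 lay within 1% of the highest value of the array on 9 of 9 LPS and 8 of 9 pretreated arrays, and TYROBP on 6 and 8. The part of the marker shift in the fall of the mitotic genes was not tested. Of 9 T and NK lymphocyte markers 2 rose with LPS (summed intensity 16351 to 18599 untreated, 32010 to 39947 after LPS and 31608 to 32510 after the pretreatment). NKG7, 1 of the 2, made up most of these sums, at log2 means of 13.85, 14.94 and 14.82 in the 3 groups. CD2, the other, changed more, with log2 differences of 2.92 with LPS and 2.54 with PBD150 plus LPS (adjusted p = 0.000115 and 0.000175). With PBD150 plus LPS 3 of the 9 rose, NCR1 among them at 1.16 (adjusted p = 0.0149). CD3D and CD8A did not pass with LPS (log2 differences of 0.52 and 0.00, adjusted p = 0.313 and 0.994). Of 4 B lymphocyte markers 1 rose and 1 fell (1086 to 1152, 557 to 786 and 530.4 to 644), and of 8 fibroblast or epithelium markers 2 rose (596 to 675, 781 to 1216 and 1019 to 1190), with COL3A1 not above noise on any array given LPS. Their part in the result was likewise not tested. For scale, 2061 of all 15207 named genes rose with LPS and 2343 fell.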

How the data were processed

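RNA (2.5 µg) from U937 cells was read on 27 one-colour Phalanx Human OneArrays, per the labels. The authors deposited 1 linear intensity for each probe on each array. The sources used here do not describe scanning, background correction or scaling. Intensities below a floor of 1 were raised to it, log2 was taken, arrays were quantile normalised, and the 3 technical arrays of a culture were averaged. Group means of the 9 cultures were fitted without a block and compared by two-sided tests in limma 3.58.1 (R 4.3.3), with Benjamini-Hochberg adjustment over 30968 probes at 0.05. Of these probes 17397 had 1 symbol, updated through RefSeq (GRCh38.p14), 0 had several and 13571 were unnamed here. All 52 set genes could be named, with values per culture for 2 to 4 of each role group (smallest p, or not passing) and for genes singled out later. Of each list of other mitotic genes up to 4 with the smallest p could be named. The set, the lists and the markers were chosen with earlier results of these data known, so no list has a p-value. Promoters were searched on both strands. The tests were tried on simulated data. The 18 alternatives covered scaling, low values, probes, weights, arrays, replicate block and each culture left out.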

Additional observations from a re-analysis of the deposited data

How the results depend on the processing

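No called value changed direction in 18 alternatives. With LPS the count of genes that fell was 40 to 45, and with PBD150 plus LPS 43 or 44, with 0 passing between the treated groups in each; leaving out 1 culture gave 40 to 44, 43 to 44 and 0. Against untreated cells 38 genes passed in every alternative with LPS and 43 with PBD150 plus LPS. Losses with LPS concerned PRC1, BUB1B, HMMR (without untreated replicate 1, 2 or 3, LPS replicate 2, or with 2 groups in the fit), NEK2 (without untreated replicate 1 or 2 or LPS replicate 2 or 3), AURKA and NCAPD2 (values as deposited, adjusted p = 0.0535 and 0.0573), and with PBD150 plus LPS PRC1 (without PBD150 plus LPS replicate 1, 0.0516). As deposited, the median over all named genes shifted to 0.38 with LPS, 0.25 with PBD150 plus LPS and -0.17 between them; relative to it the set stood at -2.20, -2.34 and -0.28. The set's median with LPS was then -1.82, and -2.30 after median centring, with -2.34 to -1.97 when 1 culture was left out. With PBD150 plus LPS the set's median was -2.10 as deposited and -2.42 after median centring, with -2.39 to -2.24 when 1 culture was left out. Between the treated groups it was -0.44 as deposited, -0.12 with array weights, which gave LPS replicate 1 a weight of 0.31, and -0.409 to -0.0293 when 1 culture was left out. Deviations from the group means correlated at -0.22 to 0.04 between cultures of the same replicate number, which does not settle whether the numbers pair the cultures. A replicate block left 43, 44 and 0 genes and medians of -2.19, -2.26 and -0.28. Dim probes limit the folds of NCAPG, BUB3 and CDC25A, and with PBD150 plus LPS also those of BUB1, NUF2, PLK4 and BUB1B. The pseudocount of 16 moved these 4 from -3.67, -3.57, -3.56 and -3.87 to -2.82, -2.85, -2.90 and -3.23 against untreated cells.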
